A study of Mus musculus with 33 samples.

Results

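The brains of control mice were compared at 1 and 3 months of age, to describe how gene expression changes over these weeks without the loss of Mcoln1. The 8 libraries compared are all those labelled as controls at these ages, 4 at 1 month and 4 at 3 months, of 33 libraries in the series. All 8 are from brain tissue of C57Bl/6J mice and carry the same genotype, Mcoln1+/-, so they still hold 1 disrupted allele of the gene for the lysosomal channel mucolipin-1 and are not wild type. The labels give neither sex, time of day, brain region nor batch, and the study's methods state only that both sexes were used. A further 4 Mcoln1+/- libraries at 2 months are shown as the middle point and enter no test. Beside them stand 7 Mcoln1-/- libraries of the same ages (4 at 1 month, 3 at 3 months) and 5 control libraries at 7 months (3 Mcoln1+/- and 2 Mcoln1+/+), which were counted in a separate table. Of these, 1 of the 3 Mcoln1+/- libraries is labelled 7 months but named for 8 months in that table, so its age is in doubt. Replicate numbers are given, and nothing in the labels ties a library to a named animal, so p-values measure the spread between these libraries.

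Between 1 and 3 months the mouse brain leaves the juvenile phase. As background, oligodendrocyte precursors divide and mature into cells that wrap axons in myelin, a membrane rich in cholesterol and galactolipids, and the peak of myelin gene expression falls in the first postnatal weeks. Over the same period axon growth ends, the extracellular matrix and blood vessels mature, glutamate and GABA receptor subunits are exchanged, and hormonal and daily rhythms take their adult form.

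The assay was MARS-seq applied to bulk RNA, a method that captures the 3′ end of each transcript, and the deposited values are raw counts per gene. Total counts were 3381197, 4013825, 2582121 and 3688229 in the 1-month libraries (replicates 1 to 4) and 3090039, 4422461, 3304119 and 2658886 in the 3-month libraries. Levels are given as CPM, the count of a gene relative to the total of its library, scaled by TMM factors, as mean ± SD over 4 libraries unless stated. Mcoln1 itself was at 44.6, 44.2, 50.0 and 47.5 CPM at 1 month and at 45.0, 47.9, 53.5 and 46.5 CPM at 3 months. These values overlapped and did not pass the test (log2 fold change 0.05 ± 0.13 SE, edgeR adjusted p = 0.886).

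The tissue label was borne out by its markers. All 14 neuronal markers, all 16 astrocyte markers and all 26 markers of mature oligodendrocytes were measured above the filter on low counts. Markers of pituitary, retina, and liver, muscle and pancreas were low, with summed levels of 24.4, 4.78 and 41.2 CPM at 1 month. Reads from Xist and from 4 Y-linked genes divided each age evenly. Replicates 1 and 2 at 1 month and replicates 3 and 4 at 3 months had 0 or 1 Y-linked counts, and the other 4 libraries had 44 to 58. The 3-month replicates 3 and 4 also stood apart on the first principal component of the 8 libraries (21.5 and 33.7, against 0.94 and -0.73 for the other 3-month libraries). That component held 32.3% of the variance, and 60.8% of its own spread lay between the ages. At 1 month it did not follow the Y-linked counts (-22.5 and -8.53 for replicates 1 and 2, -17.1 and -7.28 for replicates 3 and 4). On the second component the 3-month replicates 3 and 4 lay apart from each other (11.03 and -16.5). Their set by Y-linked counts and their standing apart cannot be told apart at 3 months, so the counts that follow were also taken without both.

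Of 11369 genes tested, 210 changed between 1 and 3 months, 68 higher and 142 lower at 3 months (edgeR quasi-likelihood test, at an adjusted p no higher than 0.05 and a change of 1.5-fold or more). These are 1.85%, 0.598% and 1.25% of the genes tested, and 253 (2.23%) passed the adjusted p alone. At an unadjusted p under 0.05 there were 1713 genes (15.1%), and the median log2 fold change of all genes was -0.00. In 62 of the 68 higher and 139 of the 142 lower genes the 2 ages did not overlap, against 8.93% of all genes tested (4.05% with all 3-month libraries higher and 4.87% with all lower). The called genes were chosen for a gap between the ages in these same libraries, so the share of all genes is no measure for them. The number of genes called rested in part on 1 library. Without 1-month replicate 1 it was 98 (27 higher and 71 lower), and without each other library in turn it was between 156 and 229. Without the 3-month replicates 3 and 4 together it was 222 (78 higher, 144 lower).

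**Figure D1:**
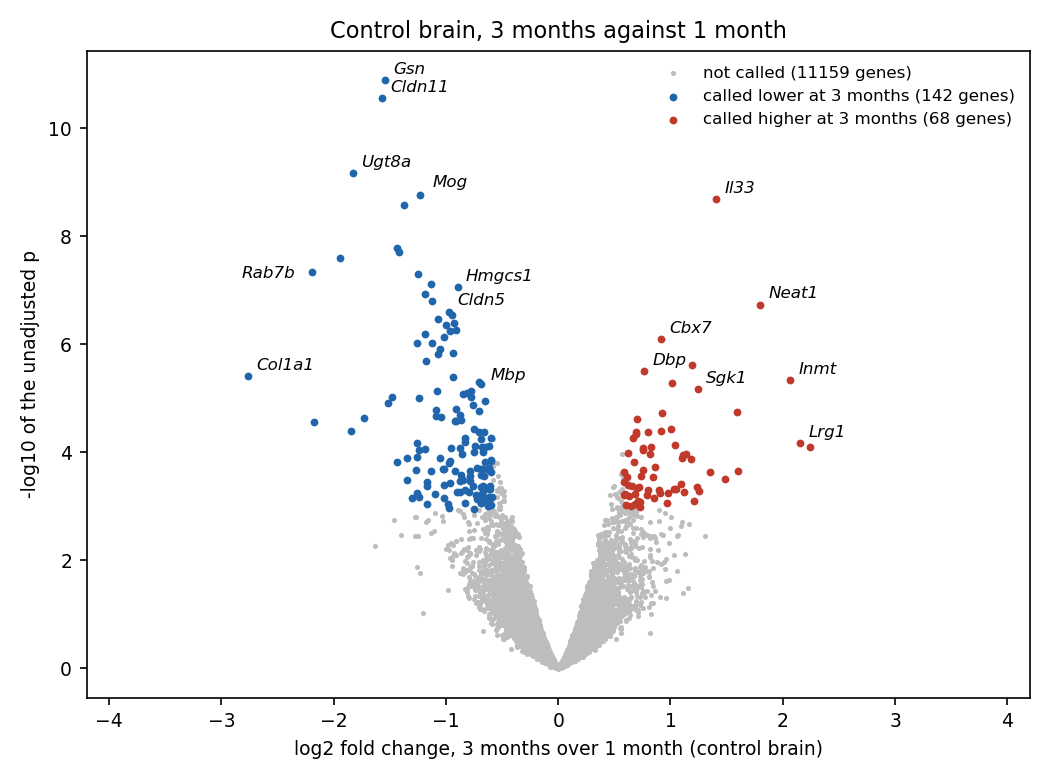
Each point is 1 of 11369 genes. The x axis is the log2 fold change of 3 over 1 month in control brain and the y axis is -log10 of the unadjusted edgeR p, with the 142 genes called lower in blue and the 68 called higher in red. The genes with the smallest p were lower at 3 months and are led by Gsn and Cldn11, while Il33 and Neat1 lead on the higher side.

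Myelin genes formed the largest group that fell. Of 26 markers of myelin and mature oligodendrocytes tested, 16 fell and 1 rose, and the median log2 fold change was -0.79. The summed level of the list was 30428, 26639, 28374 and 26327 CPM at 1 month and 19372, 18601, 17872 and 20520 CPM at 3 months, so every 3-month library was below every 1-month library. With fewer libraries the list had 15 members called without 1-month replicate 1 and 17 without 3-month replicates 3 and 4. In bulk tissue, fewer cells of a type and less RNA per cell cannot be told apart.

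Cldn11 (chr3:31149920-31164324, GRCm38, plus strand, 3 exon blocks) encodes the claudin of the tight junctions between myelin layers. Its level was 715, 554, 623 and 623 CPM at 1 month and 222, 207, 190 and 227 CPM at 3 months. All 3-month libraries were lower, by 1.57 on the log2 scale (a 2.97-fold fall, adjusted p = 1.55e-07). Ugt8a, which makes the myelin lipid galactosylceramide, was at 121, 71.97, 89.9 and 93.2 CPM at 1 month and at 27.3, 30.4, 26.8 and 19.9 CPM at 3 months, a 3.55-fold fall (adjusted p = 2.53e-06). Fa2h, which hydroxylates fatty acids of myelin lipids, fell by 0.74 and Gal3st1, which adds sulfate to galactosylceramide, by 1.19 on the log2 scale.

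Mog, a glycoprotein of the outermost myelin layer, fell from 514 ± 31.7 to 219 ± 26.0 CPM (2.35-fold, adjusted p = 4.61e-06), and Mal, a proteolipid of compact myelin, from 1054 ± 165 to 405 ± 61.9 CPM (2.60-fold, adjusted p = 5.01e-06). Mbp, the most abundant member of the list, fell less in proportion, from 13322 ± 1158 to 8242 ± 690 CPM (1.62-fold, adjusted p = 0.00155). Mbp lost the call in the 4 libraries with 0 or 1 Y-linked counts alone, where 12 members of the list were called. Among the remaining genes that fell, Mag fell by 1.12, Tspan2 by 1.13, Opalin by 1.00, Cnp by 0.95, Mobp by 0.91, Ermn by 0.86 and the gap junction gene Gjb1 by 0.61. The fall was not shared by the whole list. Car2 (561 and 505 CPM at 1 and 3 months), Trf (723 and 615 CPM), Anln (37.8 and 33.4 CPM) and Myrf (61.1 and 51.4 CPM), the factor that switches on myelin genes, did not pass the test. Apod (352 and 406 CPM), Ptgds (3936 and 5215 CPM), Hapln2 (29.5 and 42.5 CPM) and Aspa (3.39 and 5.23 CPM) had higher means at 3 months and did not pass it either.

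Earlier stages of the lineage gave fewer calls. Of 9 tested markers of newly formed oligodendrocytes 2 fell, and the median was -0.60. Gpr17, a receptor that marks cells on the way from precursor to oligodendrocyte, was at 52.4, 54.2, 54.2 and 50.5 CPM at 1 month and at 18.3, 15.97, 26.2 and 17.5 CPM at 3 months (log2 -1.44 ± 0.16, adjusted p = 2.62e-05). The 1-month libraries differed by less than 4 CPM and lay above all 3-month libraries. Rras2, a small GTPase, fell from 18.4 ± 2.03 to 9.26 ± 2.73 CPM (adjusted p = 0.0155), a call lost without 1-month replicate 1 and without 3-month replicate 1 or 3. Of 7 markers of oligodendrocyte precursors none was called at any setting, and their median was -0.31. Pdgfra, the growth factor receptor of precursors, was at 18.3 and 14.7 CPM, and Cspg4 at 12.96 and 11.4 CPM.

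Gsn had the smallest p of all genes. It encodes gelsolin, an actin-severing protein, and lies at chr2:35256380-35307892 (plus strand). Its level was 415, 377, 416 and 400 CPM at 1 month and 139, 131, 133 and 149 CPM at 3 months. The fall was 2.91-fold, with an adjusted p of 1.45e-07, and the groups lay more than 200 CPM apart. Rab7b, a small GTPase of endosomal traffic, fell from 22.7 ± 2.53 to 5.03 ± 2.57 CPM (4.56-fold, adjusted p = 5.11e-05).

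Of 18 genes of cholesterol synthesis tested 3 fell and 15 did not pass the test. All 18 had a negative log2 fold change, with a median of -0.51. At an unadjusted p under 0.05 there were 15 of the 18, and in 12 the ages did not overlap, against 15.1% and 8.93% of all genes tested. The summed level of the list was 1539, 1493, 1524 and 1442 CPM at 1 month and 1033, 1018, 939 and 1032 CPM at 3 months. Hmgcs1, the synthase that makes HMG-CoA at the entry of the pathway, was at 475, 442, 504 and 456 CPM at 1 month and at 257, 267, 238 and 246 CPM at 3 months. It fell 1.86-fold (log2 -0.90 ± 0.11, adjusted p = 7.65e-05). Sqle, which epoxidizes squalene, fell from 86.5 ± 8.90 to 49.6 ± 7.16 CPM (adjusted p = 0.00204), and Acat2, which makes acetoacetyl-CoA, from 51.9 ± 5.11 to 34.2 ± 1.89 CPM (adjusted p = 0.0195). The call of Acat2 was lost in 5 of the 8 fits with 1 library left out.

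Msmo1, a sterol oxidase of the pathway, passed the adjusted p but not the fold (log2 -0.58, adjusted p = 0.0252). The number of members called was 2 without 1-month replicate 1 and 6 without 3-month replicates 3 and 4. Outside the pathway, Apoe, the main lipid carrier of the brain, was at 4229 and 4473 CPM, and the neuronal cholesterol hydroxylase Cyp46a1 at 328 and 314 CPM, with no call.

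Cholesterol genes are read out by SREBP factors, which bind sterol regulatory elements near the start of transcription. RefSeq promoter windows of 300 bases were matched by symbol for 14 of the 18 genes tested. The element TCACNCCAC, searched on both strands, was found in 1 of them, Hmgcs1, and in 1.24% of the 32851 promoter windows of the table. The count is of genes with a match in any window and the share is of windows, so they are not on the same scale. The Hmgcs1 window (GRCm38.p6, chr13:119690101-119690400, plus strand) is shown because this gene fell the most clearly of its pathway, with the element in capitals.
Hmgcs1: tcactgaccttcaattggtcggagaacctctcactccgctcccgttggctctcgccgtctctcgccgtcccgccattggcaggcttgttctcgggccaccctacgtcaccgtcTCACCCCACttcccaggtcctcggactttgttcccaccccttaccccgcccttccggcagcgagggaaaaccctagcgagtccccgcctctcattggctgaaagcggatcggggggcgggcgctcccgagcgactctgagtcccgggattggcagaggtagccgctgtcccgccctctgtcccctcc
The match begins at position -137 relative to the RefSeq start, and none overlaps the E-box searched later. A match of letters is a description and not evidence of binding.

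Of 24 genes of collagens and basement membrane tested, 6 fell, none rose and 18 did not pass the test, with a median of -0.41. Col1a1 (chr11:94936224-94953042, plus strand), the main chain of fibrillar type I collagen, had the largest fall of any gene named here. Its level was 208, 40.9, 67.8 and 37.7 CPM at 1 month and 17.7, 8.32, 17.3 and 9.14 CPM at 3 months. The ages did not overlap, but 1-month replicate 1 alone was above 200 CPM. The fall was 2.76 ± 0.44 on the log2 scale (adjusted p = 0.00125), and without that library the log2 change was -1.88. Col1a2, its partner chain, was at 83.0, 29.2, 43.4 and 30.9 CPM and then at 17.0, 14.8, 16.7 and 16.3 CPM (log2 -1.52 ± 0.26, adjusted p = 0.00274).

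Col3a1 fell from 8.42 ± 3.13 to 2.42 ± 1.196 CPM, the basement membrane chain Col4a1 from 21.2 ± 2.47 to 9.06 ± 2.79 CPM, its partner Col4a2 by 0.79 on the log2 scale, and Serpinh1, the collagen chaperone, from 64.1 to 34.3 CPM. Eln, which encodes elastin and was outside the list, fell from 20.01 ± 3.90 to 5.24 ± 0.87 CPM (3.85-fold, adjusted p = 3.18e-05). Sparc, the most abundant member of the collagen list, was at 1245 and 970 CPM (adjusted p = 0.0902), and the laminin chain Lamb1 at 9.31 and 9.28 CPM. In the 4 libraries with 0 or 1 Y-linked counts alone 2 of the list were called.

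Collagen chains are also markers of fibroblasts of the meninges. Of that list 12 of 14 markers were in the table and 11 were tested, and the 3 that fell were Col1a1, Col1a2 and Col3a1. Of the 11 tested, 9 had a negative log2 fold change and 6 an unadjusted p under 0.05 (15.1% of all genes tested), with a median of -0.24. Its summed level was 726, 489, 450 and 518 CPM at 1 month and 375, 367, 398 and 443 CPM at 3 months, highest in 1-month replicate 1. Its most abundant member, Igf2, was at 168 and 145 CPM, the meningeal transporter Slc6a13 at 18.1 and 15.1 CPM and Islr at 36.6 and 35.9 CPM, none of which passed the test. How much the amount of meninges taken with each brain had to do with the collagen values was not tested.

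Genes of axon growth and immature neurons gave 2 calls among 21, both lower, with a median of -0.26. Without 3-month replicate 4 there were 4 calls. Marcksl1, an actin-binding protein of growing neurites, was at 317, 271, 260 and 262 CPM at 1 month and at 101, 113, 93.7 and 159 CPM at 3 months (2.38-fold, adjusted p = 5.11e-05). Nrep, a protein linked to neuronal regeneration, fell from 269 ± 32.8 to 137 ± 20.5 CPM (1.95-fold, adjusted p = 0.000277). Tubb2b was at 170 and 119 CPM, with an adjusted p of 0.0302 and a fold under 1.5. The growth cone genes Gap43 (664 and 620 CPM) and Basp1 (1069 and 1142 CPM) and the early neuronal factors Sox11 (12.7 and 9.45 CPM) and Sox4 (26.8 and 23.6 CPM) were not called. Of 7 tested genes of perineuronal nets and brain matrix 2 fell, with a median of -0.46, which was -0.02 with no call in the 4 libraries with 0 or 1 Y-linked counts alone. The most abundant, Bcan, which encodes brevican, was at 392.5 and 355 CPM (adjusted p = 0.653). Tnc, tenascin C, fell from 6.74 ± 1.47 to 2.54 ± 1.31 CPM (adjusted p = 0.0377) and Ptprz1, a phosphatase receptor of glia, from 31.5 ± 5.28 to 19.3 ± 2.53 CPM (adjusted p = 0.0344). Both were sensitive to single libraries, since Tnc lost the call in 7 and Ptprz1 in 6 of the 8 fits with 1 library left out.

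Single genes of other lists fell. Cldn5, the claudin of the blood-brain barrier (chr16:18776847-18778262, plus strand), was at 94.9, 107, 87.2 and 98.6 CPM at 1 month and at 56.9, 49.5, 46.9 and 44.5 CPM at 3 months (1.96-fold, adjusted p = 0.000165). It was 1 of 14 endothelial markers tested and the only member called with all 8 libraries. The number called was 2 without 1-month replicate 3 or 3-month replicate 3, and 3 without 3-month replicate 4. Of the 14, 6 had a negative and 8 a positive log2 fold change. The most abundant, Bsg, which encodes basigin, was at 963 ± 58.5 and 725 ± 95.3 CPM without overlap between the ages (log2 -0.41 ± 0.12, adjusted p = 0.0793). Pecam1 (16.8 and 18.8 CPM), Cdh5 (12.7 and 13.2 CPM) and Ly6c1 (111 and 128 CPM) did not pass the test. P2ry12, the purinergic receptor of resting microglia, fell from 26.4 ± 6.54 to 15.4 ± 2.64 CPM with an adjusted p of 0.0498, next to the threshold, while Tmem119 (41.3 and 37.8 CPM) and Cx3cr1 (23.2 and 19.5 CPM) were not called. Cd9, a tetraspanin of the disease-associated microglia list that oligodendrocytes also express, fell by 0.72 ± 0.16 on the log2 scale. The chaperone of the endoplasmic reticulum Hspa5 fell by 0.68, the interneuron peptide Vip by 0.59 and the cerebellar granule cell factor Neurod1 by 0.63. The calls of P2ry12, Cd9, Hspa5, Vip and Neurod1 were lost in 7, 4, 1, 6 and 7 of the 8 fits with 1 library left out. Further genes named for the size of their fall were the secreted C1qtnf6 (9.34 ± 1.64 to 3.30 ± 0.29 CPM) and Gldc, the glycine decarboxylase (7.93 ± 2.52 to 2.91 ± 0.875 CPM), the latter with the call lost in 3 of those 8 fits.

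**Figure D2:**
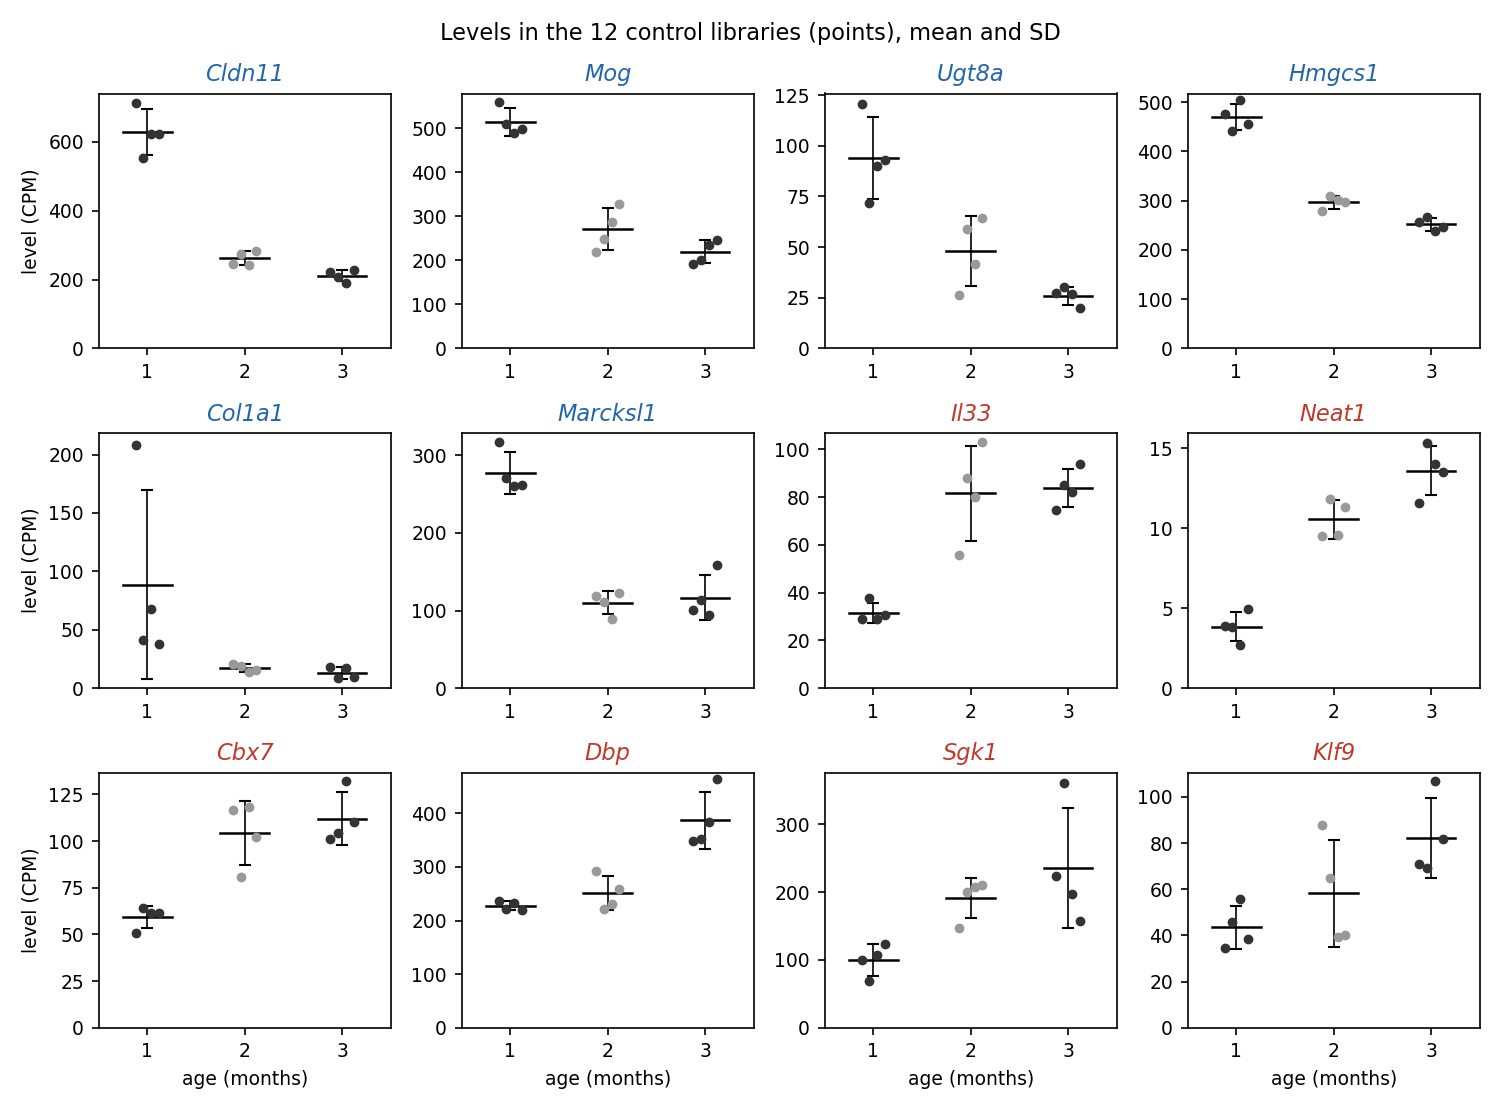
Levels of 12 named genes (y axes, CPM from 0) in the control libraries at 1, 2 and 3 months (x axes). Points are libraries, bars the mean and whiskers the SD (n = 4 an age), the 2-month libraries (grey) were in no test, and titles are blue for genes called lower and red for genes called higher. The means of Cldn11, Mog and Hmgcs1 were near their 3-month level by 2 months. The mean of Dbp was 251 CPM at 2 months and 387 CPM at 3 months. For Col1a1, 1 library lies far above the others.

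Among genes that rose, Il33 had the smallest p. It encodes an alarmin cytokine kept in the nucleus of oligodendrocytes and astrocytes, lies at chr19:29925114-29960718 (plus strand), and was the 1 member of the myelin list that rose. Its level was 28.9, 37.6, 29.1 and 30.6 CPM at 1 month and 74.6, 85.0, 82.1 and 93.8 CPM at 3 months. The rise was 2.65-fold (log2 1.40 ± 0.14, adjusted p = 4.61e-06), and every 3-month library was above every 1-month library. Neat1, a long non-coding RNA that builds nuclear paraspeckles (chr19:5824708-5845478, minus strand), rose from 3.83 ± 0.90 to 13.6 ± 1.54 CPM (3.49-fold, adjusted p = 0.000130). Cbx7, a chromodomain subunit of Polycomb complexes, was at 50.6, 64.1, 61.2 and 61.5 CPM at 1 month and at 101, 104, 132 and 110 CPM at 3 months (1.89-fold, adjusted p = 0.000350).

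Several low genes rose by large folds. Inmt, an indolethylamine methyltransferase, rose from 2.05 ± 0.65 to 8.70 ± 3.03 CPM (4.18-fold, adjusted p = 0.00142), and the lipid transporter Abca8a from 3.03 ± 0.96 to 9.00 ± 2.13 CPM (3.02-fold, adjusted p = 0.00372). Lrg1, a secreted leucine-rich glycoprotein, was at 4.76, 4.07, 5.04 and 3.01 CPM at 1 month and at 24.4, 33.3, 6.08 and 7.55 CPM at 3 months. Its log2 change of 2.15 ± 0.43 (adjusted p = 0.00940) came mainly from 3-month replicates 1 and 2, and in the libraries with 0 or 1 Y-linked counts alone the change was 0.62, with no call. Klhl40, a kelch protein known from muscle, rose from 10.02 ± 1.31 to 22.998 ± 3.25 CPM and Tns2, a focal adhesion protein, from 16.8 ± 1.73 to 34.2 ± 5.69 CPM. Crebrf (log2 1.49), Magoh of the exon junction complex (log2 1.35) and the ceramidase Acer2 (log2 1.26) also rose. These 3 lost the call in 3, 4 and 6 of the 8 fits with 1 library left out.

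The circadian clock list leaned upward. Of 17 genes tested 3 rose and none fell, with a median of 0.32, and its summed level was 948, 1006, 1022 and 1076 CPM at 1 month and 1286, 1282, 1427 and 1568 CPM at 3 months. Dbp, an output factor of the clock (chr7:45705088-45710203, plus strand), was at 237, 222, 232 and 219 CPM at 1 month and at 348, 352, 383 and 463 CPM at 3 months (1.70-fold, adjusted p = 0.00104). Ciart, a repressor of the clock activators, was at 14.6, 17.5, 13.9 and 13.7 CPM and then at 24.8, 35.3, 20.7 and 43.3 CPM (2.06-fold, adjusted p = 0.00990). Nr1d1, the nuclear receptor REV-ERB alpha, rose from 101 ± 17.5 to 159 ± 35.4 CPM (adjusted p = 0.0296), with overlap between the ages, and lost the call in 6 of the 8 fits with 1 library left out.

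Per2 (6.35 and 11.3 CPM, adjusted p = 0.0677) and Per1 (70.8 and 103 CPM, adjusted p = 0.119) were not called, nor were the activators Arntl (23.04 and 16.4 CPM) and Clock (7.01 and 4.84 CPM), whose means were lower at 3 months. Transcripts of these genes follow the time of day, which the labels do not give, so age and hour of collection cannot be told apart for them. The last 1000 exonic bases of Dbp overlap Sphk2, those of Nr1d1 overlap Thra and those of Cbx7 overlap Apobec3, each on the opposite strand. Whether counting used the strand is not given in the sources used here. Sphk2 was at 50.5 and 49.7 CPM and Apobec3 at 4.69 and 6.39 CPM, with no call, while Thra, the thyroid hormone receptor alpha gene, was itself called higher (23.9 and 38.0 CPM, adjusted p = 0.0150).

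The clock activators bind the E-box CACGTG, and Dbp and its relatives bind the D-box, searched as TTANGTAA. Promoter windows were matched for 15 of the 17 clock genes. The E-box was found in 4 of them (Per1, Cry1, Tef and Ciart) and in 7.15% of all windows, and the D-box in 2 (Per3 and Rorb) and in 2.32% of all windows. A gene was counted if any of its windows matched, so counts of genes and shares of windows are not on the same scale. The Ciart window (chr3:95882179-95882478, minus strand) and the Per1 window (chr11:69098699-69098998, plus strand), both GRCm38.p6, are shown because these genes have the smallest p of the 4, with E-boxes in capitals.
Ciart: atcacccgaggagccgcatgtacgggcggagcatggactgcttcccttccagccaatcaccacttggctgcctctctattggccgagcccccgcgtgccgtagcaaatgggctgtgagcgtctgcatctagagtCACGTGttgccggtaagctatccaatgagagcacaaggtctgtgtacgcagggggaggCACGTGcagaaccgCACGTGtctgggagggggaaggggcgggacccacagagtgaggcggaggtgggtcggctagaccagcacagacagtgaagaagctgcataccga
Per1: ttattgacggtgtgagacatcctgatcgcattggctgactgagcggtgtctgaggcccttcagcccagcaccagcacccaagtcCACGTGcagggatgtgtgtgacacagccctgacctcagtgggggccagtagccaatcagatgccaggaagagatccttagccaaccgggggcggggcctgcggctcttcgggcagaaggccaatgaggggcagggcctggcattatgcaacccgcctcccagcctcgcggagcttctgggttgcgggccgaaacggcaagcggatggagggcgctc
Ciart, which was called, holds 3 E-boxes, at positions -116, -58 and -44 from its RefSeq start, and Per1, which was not called, holds 1 at position -166. Both strands were searched, and no E-box overlaps a D-box or a sterol regulatory element in these windows.

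Genes that respond to glucocorticoids gave 2 calls among 11, both higher, with a median of 0.40. Of the 11, 10 had a positive log2 fold change. Without 3-month replicates 3 and 4 there were 4 calls and the median was 0.60. Sgk1, a kinase induced by glucocorticoids (chr10:21882184-21999903, plus strand), was at 100, 68.9, 107 and 124 CPM at 1 month and at 224, 361, 197 and 158 CPM at 3 months (2.37-fold, adjusted p = 0.00188). The ages did not overlap, and 3-month replicate 2 was the highest. Nfkbia, the inhibitor of NF-kB, rose from 71.9 ± 14.2 to 127 ± 32.3 CPM (1.76-fold, adjusted p = 0.0121), a call lost without 1-month replicate 1. Fkbp5 (23.2 and 33.0 CPM) and Tsc22d3 (121 and 148 CPM) were not called. Klf9, a factor that both glucocorticoids and thyroid hormone induce, was outside that list and rose from 43.6 ± 9.34 to 82.3 ± 17.3 CPM (adjusted p = 0.00385). Of 21 activity-induced genes 2 rose, Fosb (6.63 ± 3.05 to 14.1 ± 1.37 CPM, adjusted p = 0.0283) and Nr4a1 (124 ± 31.5 to 188 ± 26.1 CPM, adjusted p = 0.0445), and the median was 0.30. The ages overlapped for Nr4a1, and Fosb and Nr4a1 lost the call in 4 and 6 of the 8 fits with 1 library left out. Without 1-month replicate 1 none of that list was called. Fos (53.0 and 73.2 CPM), Arc (217 and 282 CPM) and Egr1 (238 and 237 CPM) did not pass the test.

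Smaller groups contributed single rises. Of 15 imprinted growth genes Meg3 (73.0 ± 13.6 to 110 ± 15.97 CPM) and Peg3 (4.995 ± 1.32 to 10.9 ± 3.18 CPM) rose, with adjusted p values of 0.0341 and 0.0327. The most abundant of that list, Nnat, which encodes neuronatin, was at 781 ± 71.9 and 635 ± 358 CPM with overlap (log2 -0.30 ± 0.23, adjusted p = 0.575), and without 3-month replicate 4 it was called lower (log2 -0.77, adjusted p = 0.00121). C4b, a complement component, rose from 14.6 ± 1.85 to 22.9 ± 2.17 CPM (adjusted p = 0.0460), the only call among 12 complement and MHC class I genes. Kcne2, a potassium channel subunit of the choroid plexus, rose from 8.39 ± 2.24 to 15.2 ± 1.58 CPM (adjusted p = 0.0373), the only call among 12 choroid plexus markers, of which the most abundant, Ttr, was at 2689 and 3483 CPM (adjusted p = 0.162). The calls of Meg3, Peg3, C4b and Kcne2 were each lost in at least 5 of the 8 fits with 1 library left out. The last 1000 exonic bases of Meg3 overlap Gm26906, a non-coding gene on the opposite strand that was not among the genes tested.

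The most abundant members of 4 other lists with calls did not pass the test. They were Tubb2a of the immature neuron list (1965 and 1547 CPM), Bcas1 of newly formed oligodendrocytes (367 and 323 CPM), Jund of the activity-induced genes (286 and 381 CPM) and C1qa of the complement list (167 and 197 CPM).

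Receptor and channel genes of neurons gave no calls at this depth. No gene was called among 20 glutamate receptor genes (median -0.18), 19 genes of GABA receptors and chloride transport (median 0.00), 16 voltage-gated channel genes (median 0.15) or 14 neuronal markers (median 0.03). Grin2b, the juvenile NMDA receptor subunit, was at 24.6 ± 5.02 and 23.7 ± 4.34 CPM (log2 -0.06 ± 0.18). The GABA receptor subunits Gabra5 (64.9 ± 6.00 and 64.7 ± 5.99 CPM) and Gabra2 (6.78 ± 4.10 and 5.84 ± 1.94 CPM) were not called. Neither were the chloride importer Slc12a2 (22.1 ± 4.92 and 17.0 ± 2.90 CPM) and the exporter Slc12a5 (282 ± 53.6 and 323 ± 95.4 CPM). At an unadjusted p under 0.05 there were 3, 5, 7 and 2 genes in these 4 lists. Over all genes tested the shares were 15.1% at that p and 1.85% called. Of the 16 voltage-gated channel genes, 12 had a positive and 4 a negative log2 fold change. None of 16 astrocyte markers, 11 cell cycle genes, 13 interferon-induced genes or 31 lysosomal genes was called either. With other sets of libraries or fits, single members of the astrocyte, interferon, lysosomal, glutamate and GABA lists and up to 2 voltage-gated channel genes were called.

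**Figure D3:**
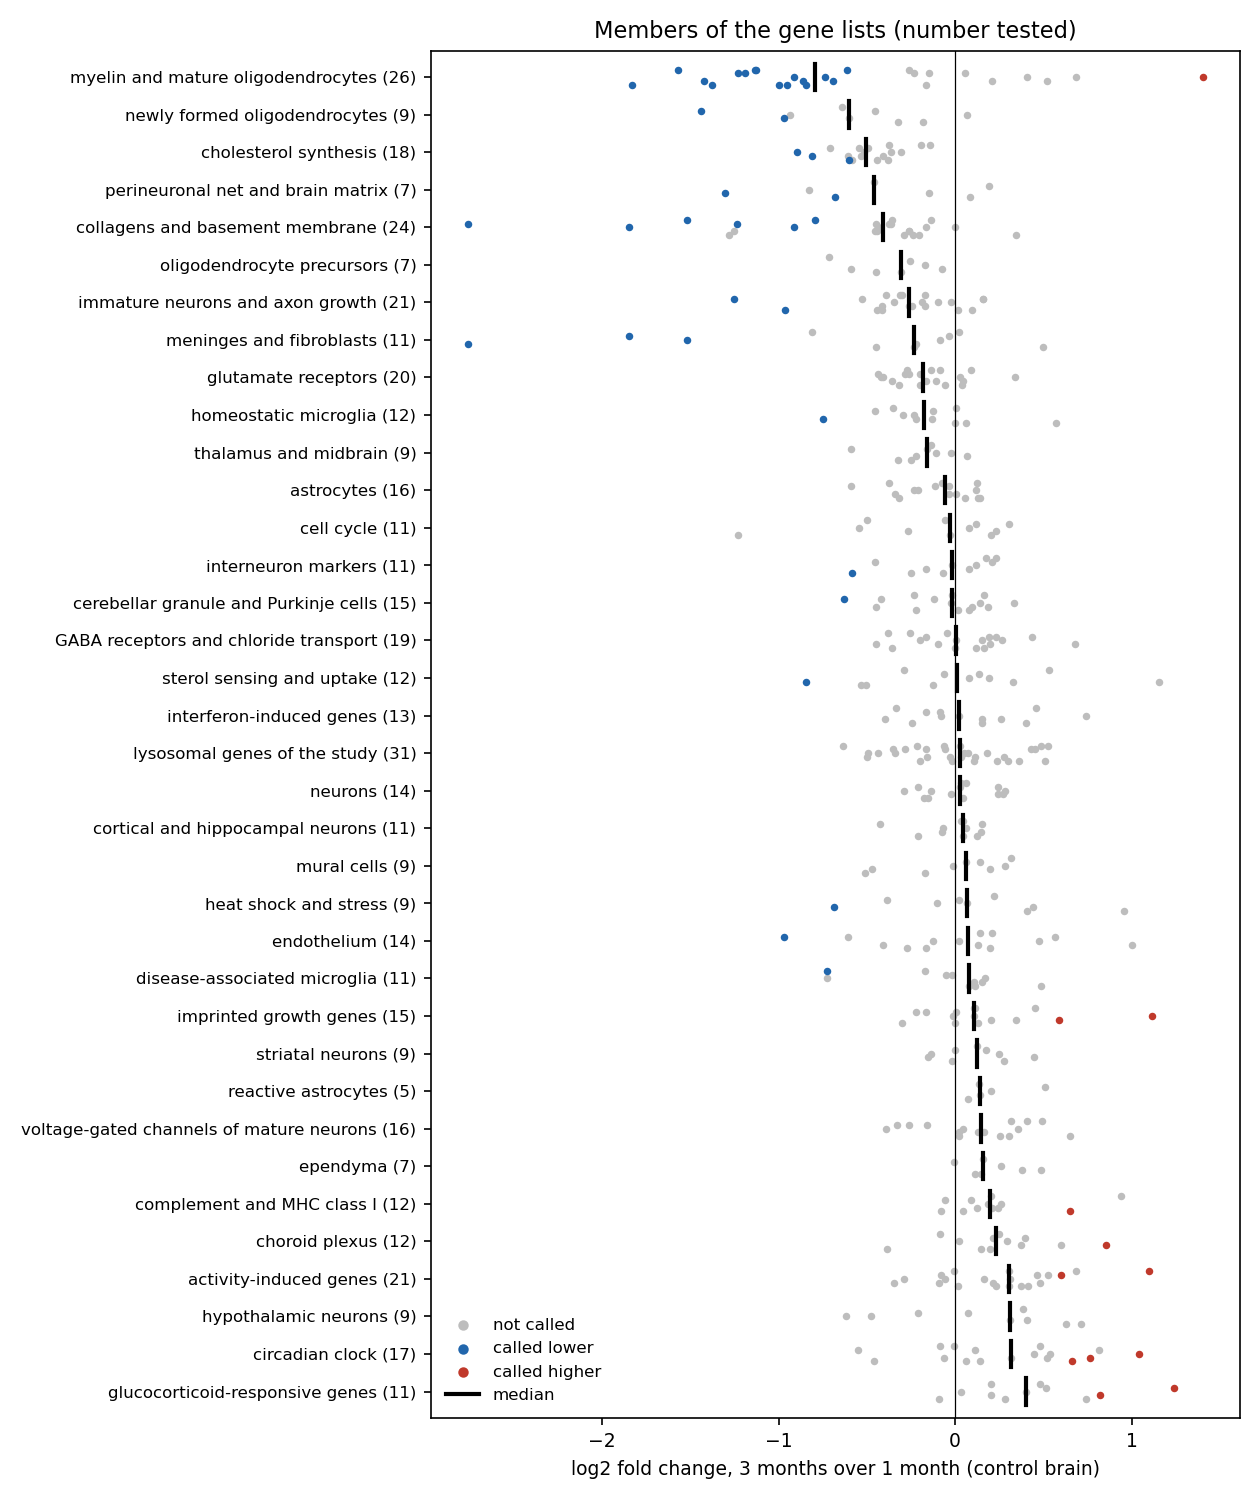
Each point is a tested gene of a list (rows, number tested in parentheses), placed by its log2 fold change of 3 over 1 month in control brain (x axis). Blue and red mark genes called lower and higher and the black bar is the median. The medians run from -0.79 for myelin genes to 0.40 for glucocorticoid-responsive genes, while the median of all 11369 genes was -0.00.

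The 2-month libraries, which had no part in the test, lay mostly in between. Their mean was between the 1- and 3-month means for 62 of the 68 higher and 127 of the 142 lower genes. Over all genes the share was 37.2%. The called genes were chosen for a gap between these means, which makes a mean in between more likely, so the shares decide nothing about a trend. The median share of the log2 change reached at 2 months was 47.2% for higher and 65.95% for lower genes, against 49.5% over all genes. Cldn11 was at 262 ± 20.6, Mog at 271 ± 47.8, Hmgcs1 at 296 ± 12.6 and Marcksl1 at 110 ± 15.3 CPM at 2 months, all closer to 3 months than to 1 month. Il33 was at 81.7 ± 19.8 and Cbx7 at 104 ± 17.2 CPM, also near their 3-month levels. Dbp (251 ± 32.1 CPM), Ciart (16.1 ± 4.07 CPM) and Inmt (3.47 ± 1.76 CPM) were closer to their 1-month levels.

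Values at 7 months come from a table counted apart and are therefore set beside the others without a test. The control mean (n = 5) was compared with the 1-month mean. It lay on the 3-month side for 139 of the 142 lower and 56 of the 68 higher genes, against 66.2% of all genes. The called genes were chosen for a gap from the 1-month mean, so the share of all genes is no measure for them here either. Cldn11 was at 123 ± 15.9 CPM, Ugt8a at 7.33 CPM, Hmgcs1 at 255 ± 10.1 CPM and Col1a1 at 10.8 ± 4.79 CPM. Several genes that had risen were near or below their 1-month level, among them Dbp (195 ± 53.6 CPM), Ciart (10.7 ± 2.24 CPM), Sgk1 (90.8 ± 50.1 CPM), Nfkbia (56.0 ± 16.3 CPM) and Klf9 (45.4 ± 5.23 CPM). Cldn5 was at 125 CPM, above its 1-month level. The 7-month groups hold 2 Mcoln1+/+ libraries among 5, so genotype and table differ from the younger groups along with age.

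The same ages were compared in Mcoln1-/- brains, which share no library with the controls. There 86 of 11003 genes changed (0.782%), 37 higher (0.336%) and 49 lower (0.445%). That number moved with single libraries. It was 28, 46, 23 and 37 without 1-month replicates 1 to 4 in turn, and 134 without 3-month replicate 1. Of the genes called in controls and tested in both, 64 of 65 higher and 140 of 140 lower genes had the same direction in Mcoln1-/- brains, against 72.02% of all genes, and 15 and 36 of them were called there in that direction. Batch is not given in the labels, so age and any batch common to both genotypes cannot be told apart. Among the myelin list 12 fell and 2 rose, with a median of -0.71. Cldn11 was at 312, 286, 311 and 302 CPM in Mcoln1-/- libraries at 1 month and at 124, 94.8 and 158 CPM at 3 months. Hmgcs1 was at 408, 365, 401 and 438 CPM and then at 259, 250 and 243 CPM, and Il33 at 28.3, 24.4, 37.2 and 29.7 CPM and then at 51.8, 70.3 and 72.4 CPM. In each of these the ages did not overlap.

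A gene that changed in 1 genotype and not in the other is not thereby shown to differ between them, so the difference of the age change was tested. No gene of 11709 was called in that test by edgeR or by DESeq2, and 239 (2.04%) had an unadjusted p under 0.05 in edgeR. For Cldn11 the age change differed by 0.31 ± 0.19 on the log2 scale (Mcoln1-/- minus control), which did not pass the adjusted test.

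**Figure D4:**
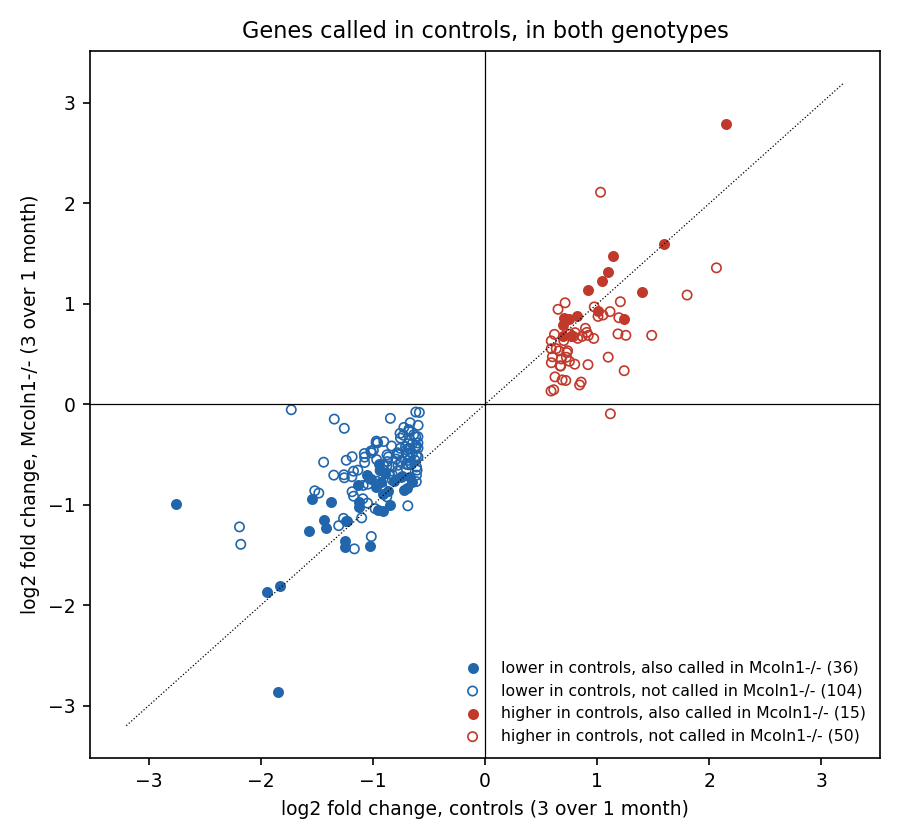
The 205 genes called in controls and tested in both genotypes, by their log2 fold change of 3 over 1 month in controls (x axis) and in Mcoln1-/- brains (y axis). Filled points were also called in Mcoln1-/- brains, open points were not, and the dotted line marks equal change. All but 1 gene lie in the quadrants of shared direction.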

How the data were processed

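Brain homogenates had been sequenced with a bulk MARS-seq protocol on an Illumina NextSeq, and uniquely mapped reads had been assigned to genes after alignment with STAR to mm10. The submitters' processing notes also name cutadapt and HTSeq. Annotation, strand setting and any use of molecular identifiers are not given in the sources used here. The authors deposited raw counts per gene, in 1 table for 1 to 3 months and another for 7 months. Their normalized values and their fold changes and p-values were not used.

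Counts of the 8 libraries were filtered with filterByExpr (11369 of 13777 genes kept), scaled by TMM and tested with edgeR 4.0.16 (quasi-likelihood, R 4.3.3), with Benjamini-Hochberg adjustment over all genes. Calls needed an adjusted p no higher than 0.05 and a change of 1.5-fold or more. CPM levels were scaled over the 23 libraries of the younger table, or over the 10 of the 7-month table. The interaction was fitted on 15 libraries.

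The rule named, without overlap between ages and at a mean of at least 5 CPM, the 10 largest folds and 10 smallest p in each direction, then the 3 called members with the smallest p and the most abundant member of each of 43 lists, and pairs of receptor subunits. Other list members, Thra, Sphk2 and Apobec3 were named after their values were seen. The comparison and the lists were chosen with earlier results of these data known. In simulated data for this comparison, 62 of 200 genes changed 1.5-fold, 172 changed 2-fold and 195 changed 3-fold were recovered. Recovery was by the adjusted p alone, without the threshold on the fold, and 3, 11 and 14 unchanged genes passed as well. Of 23 rows the gene name had been turned into a date, and none is named. Some genes of the lists are counted but not reported by name here. Coordinates are from GENCODE M21 and promoters from RefSeq (GRCm38.p6). DESeq2 1.42.0, other scalings, filters and sets of libraries were alternatives.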

Additional observations from a re-analysis of the deposited data

Results flagged for a closer look

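In 4 of 124 groups of 4 libraries examined, 1 library lay far below the other 3. Chance alone flags about 1 group in 20. At 1 month, replicate 4 had 223 CPM of Cd9, against 294 to 303 CPM in the others, and 220 CPM of Nrep, against 279.7 to 289 CPM. At 3 months, replicate 1 had 6.11 CPM of Peg3, against 11.9 to 12.8 CPM, and replicate 3 had a summed cholesterol synthesis level of 939 CPM, against 1018 to 1033 CPM.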

How the results depend on the processing

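The number of genes called between 1 and 3 months was 210, and between 178 and 279 under the other scalings, filters, tools, covariates and wider fits. With 1 library left out at a time it ranged from 98 to 229 (27 to 89 higher, 71 to 140 lower), the lowest without 1-month replicate 1. In the 4 libraries with 0 or 1 Y-linked counts alone, an alternative chosen after seeing the data, it was 311 (109 higher, 202 lower), and in the other 4 libraries alone it was 171 (59 higher, 112 lower). In the Mcoln1-/- libraries it was 86, and 23 to 134 with 1 library left out, the lowest without 1-month replicate 3 and the highest without 3-month replicate 1. What the replicate numbers mark is not given in the labels. Same-numbered control libraries deviated with correlations of 0.123, -0.0446, 0.0162 and 0.172. Differently numbered ones ranged from -0.200 to 0.220, so these values cannot show whether the numbers mark anything shared. With a replicate block the controls gave 279 calls (99 higher, 180 lower) and the Mcoln1-/- libraries, over numbers 1 to 3, gave 30. No alternative gave a call in the interaction. Of the 54 called genes named by rule, 23 were called under every alternative run, 31 lost the call under at least 1, and none reversed. The cause of these shifts was not tested. Libraries held 2582121 to 4422461 counts. In simulated data at these depths 62 of 200 genes changed 1.5-fold passed the adjusted p alone. The threshold on the fold, which calls also needed, was not applied there. Recovery by depth or level was not tested. Sex, hour of collection and batch are not in the labels.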
